A study of Mus musculus with 4 samples.

Results

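The tumor necrosis factor (TNF) superfamily was examined in alveolar macrophages (AMs), which live in the airspace of the lung, as the ligand and receptor genes that are named by superfamily number (Tnfsf, Tnfrsf) or by the older names Lta, Ltb, Ltbr, Fas, Fasl, Cd40, Cd40lg, Cd27 and Cd70. The name rule found 41 protein-coding genes among the 54532 genes of the count table, 24 receptors and 17 ligands, and it used no measured value. Tnf itself does not match the rule and is given where the results touch it. RNA was sequenced from AMs of female wild-type (WT) mice, with 2 control libraries from mice that received no tumor cells and 2 tumor libraries from mice inoculated with 4T1 cells 2 weeks earlier. 4T1 is a breast cancer line of the mouse that forms lung metastases, and the question was what changes in lung macrophages before metastases form. According to the methods of the study, WT mice had a BALB/c background and were 8 to 10 weeks old when obtained, and 4T1 cells were placed in the right mammary fat pad. Whether the 2 libraries of a group came from separate or pooled mice is not given in the sources used here, so p-values measure the spread between these libraries, which may be technical.

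Ligands of this superfamily are mostly trimeric membrane proteins, some of which are shed by proteases, and they cluster receptors that carry cysteine-rich repeats outside the cell. Receptors with a death domain can start caspase cleavage, and many of the others recruit TRAF adaptors and activate NF-kB. In the lung, AMs are a main source of TNF and respond to it through both TNF receptors, while lymphotoxin and LIGHT are best known from lymphocytes and the tissue they organise.

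Total counts ranged from 16167147 to 19205737 per library, so that 3 counts, the floor used here, corresponded to 0.153 to 0.190 CPM (counts relative to the scaled library size). The AM label was checked by identity genes, which were counted in both groups. Siglecf had 7594 and 6204 counts in the control group and 6167 and 6988 in the tumor group (log2 fold change -0.16). Fabp4, which fell most, had 441 and 427 counts against 106 and 107 (log2 fold change -2.13). The summed level of the 14 identity genes lay between 16103 and 16247 CPM in the control libraries and between 12338 and 12478 CPM in the tumor libraries, with 12 genes lower, 1 higher and 1 not called. In the study, AMs were isolated for staining and for RNA-seq, and the stained cells were gated as CD45+ CD11b- CD11c+ SiglecF+. This gate should remove neutrophils, eosinophils and most lymphocytes. For the RNA libraries the methods of the study say that AMs were purified and name no gate. Of 83 markers of other cells that were tested, 55 were called higher in the tumor libraries and 12 lower. The 10 neutrophil markers summed to 75.4 to 75.7 CPM in the control libraries and to 4396 to 4419 CPM in the tumor libraries, and the 5 eosinophil markers to 0.633 to 0.640 against 2625 to 2665 CPM. The 8 hepatocyte genes summed to 0.0533 to 0.190 against 641 to 649 CPM, and Alb was at 0 counts in both control libraries and at 8036 and 9358 in the tumor libraries. Basophil and mast cell markers summed to 2.03 to 2.29 against 522 to 529 CPM. Every gene of these 4 lists was called higher. The 8 monocyte and interstitial macrophage markers (3 higher, 4 lower) summed to 39.8 to 40.2 against 68.6 to 68.8 CPM. By contrast, the 7 lung epithelium markers (2 higher, 4 lower) summed to 211 to 216 against 141 to 146 CPM. The 6 endothelium markers (2 higher, 1 lower) summed to 115 to 117 against 105 CPM. Most of that sum was Vwf, which was lower (109 and 113 against 80.1 and 83.4 CPM), whereas Pecam1 was higher (2.24 and 2.03 against 20.1 and 17.5 CPM). The part of these cells in the results below was not tested, and in bulk libraries a change in the share of a cell type cannot be told apart from a change in RNA per cell.

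Genes were compared with the quasi-likelihood test of edgeR over all genes that passed a filter on low counts, and a gene was called when its adjusted p was under 0.05. Of the 41 superfamily genes, 28 passed the filter and 13 did not. Among the 28, 16 were called (57.1%), beside 53.8% of the 14256 genes tested. Of these, 8 were higher in the tumor libraries and 8 lower, beside 29.0% of all genes tested that were higher and 24.8% that were lower. Changes of at least 1.5-fold were called for 10 superfamily genes (35.7%), 6 higher and 4 lower, beside 25.3% of all genes tested. Of the 28, 22 reached the filter's level of 0.553 CPM in every library. Cd40, Tnfrsf9, Tnfrsf10b, Tnfrsf14 and Tnfrsf18 reached it in both libraries of the tumor group alone, and Tnfsf18 in both of the control group alone, so these 6 entered the test through 1 group and their p-values below are no independent support. With at least 10 counts asked of every library, 12 of 22 superfamily genes were called (54.5%), 5 higher and 7 lower, beside 53.1% of all 12279 genes tested in that way. The median log2 fold change was -0.04 over the 28 genes and 0.02 over all genes tested. The superfamily as a whole changed about as often as other genes, and the split by direction depended on scaling. Scaling on the AM identity genes moved the median of all genes tested from 0.02 to 0.51 and the share of calls that were higher from 53.9% to 93.3%, and the superfamily genes then split into 15 higher and 3 lower. With total counts as library sizes, 62.7% of calls over all genes were higher and the superfamily genes split into 8 higher and 6 lower.

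**Figure D1:**
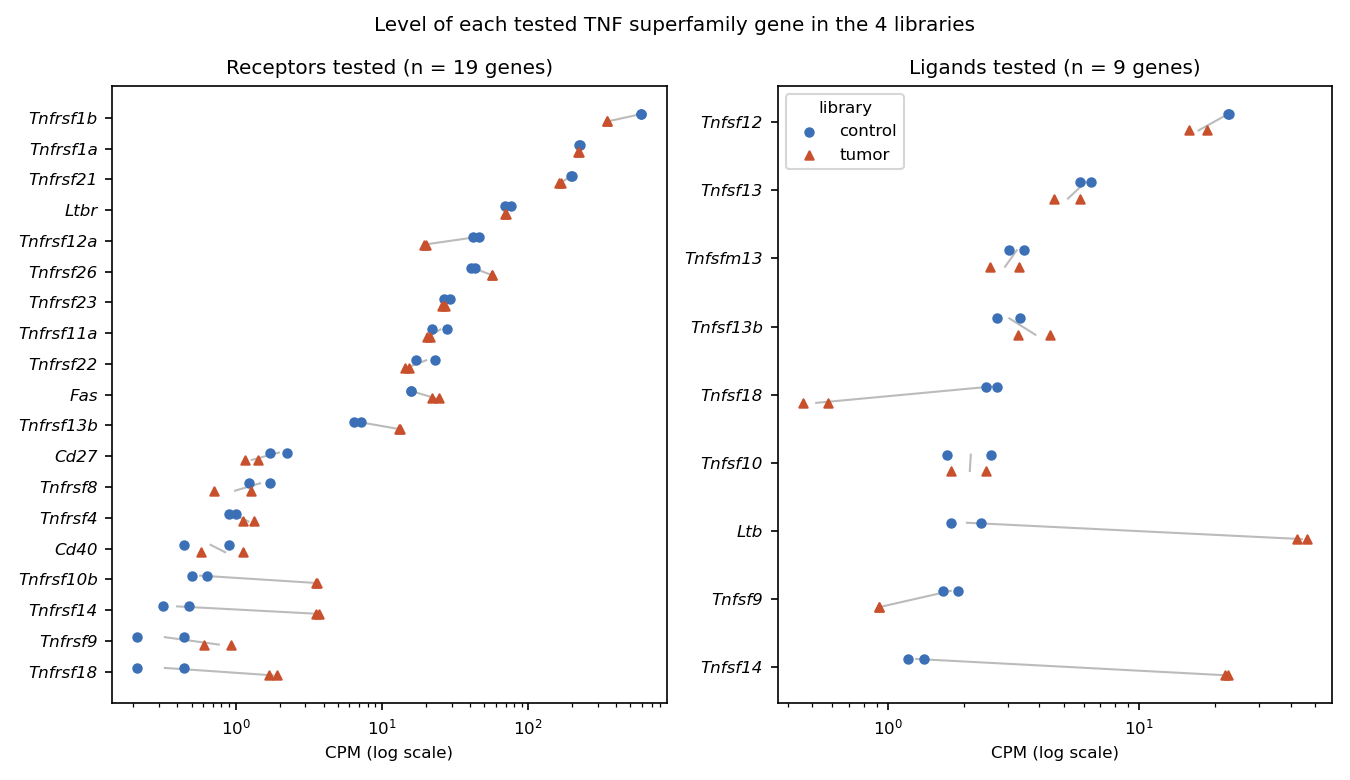
Level of each of the 28 tested genes in CPM on a log axis, with circles for the 2 control libraries, triangles for the 2 tumor libraries and a grey line between the group means, for 19 receptors on the left and 9 ligands on the right. Ltb and Tnfsf14 moved from the low end of the ligands to the top, and Tnfrsf1b, the receptor with the highest CPM, lay near 592 CPM in the control libraries and near 347 in the tumor libraries.

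The largest rises were those of Ltb and Tnfsf14, and the largest falls among genes with a mean of 100 counts or more where they were higher were those of Tnfrsf12a and Tnfrsf1b. The bases upstream of these 4 genes are shown so that the start regions of the genes that moved most can be compared, since the study asked about the aryl hydrocarbon receptor (AHR) and STAT5, factors that act through DNA elements. They are the RefSeq sequences of build GRCm38.p6, up to 250 bases before the start and cut where the annotated gene begins, each on the strand of its gene. Capitals mark matches to a STAT element (TTCNNNGAA, a palindrome, which reads the same on both strands) or to an NF-kB element (GGG, any 2 bases, then TTTCC, on either strand).
Ltb, chr17:35194257-35194438, plus strand: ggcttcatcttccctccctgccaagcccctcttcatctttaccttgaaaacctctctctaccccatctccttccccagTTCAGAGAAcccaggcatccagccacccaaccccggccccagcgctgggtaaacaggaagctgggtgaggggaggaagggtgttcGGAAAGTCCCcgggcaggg
Tnfsf14, chr17:57194182-57194431, minus strand: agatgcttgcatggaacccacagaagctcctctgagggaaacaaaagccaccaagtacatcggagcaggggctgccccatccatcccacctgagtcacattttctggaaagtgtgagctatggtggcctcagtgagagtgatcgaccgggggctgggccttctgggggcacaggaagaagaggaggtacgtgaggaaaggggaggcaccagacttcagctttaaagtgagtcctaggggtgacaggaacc
Tnfrsf12a, chr17:23677469-23677699, minus strand: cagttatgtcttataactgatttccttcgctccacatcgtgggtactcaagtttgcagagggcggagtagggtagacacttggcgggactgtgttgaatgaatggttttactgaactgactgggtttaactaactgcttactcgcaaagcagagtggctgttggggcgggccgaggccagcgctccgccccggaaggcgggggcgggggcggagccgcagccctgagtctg
Tnfrsf1b, chr4:145246871-145247120, minus strand: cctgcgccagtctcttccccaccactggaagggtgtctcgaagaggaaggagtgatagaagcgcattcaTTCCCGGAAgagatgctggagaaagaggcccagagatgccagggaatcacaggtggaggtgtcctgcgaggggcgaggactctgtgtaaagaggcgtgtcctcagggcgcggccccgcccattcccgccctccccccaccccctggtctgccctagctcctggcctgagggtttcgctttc
The Ltb stretch held a STAT match that began 104 bases and an NF-kB match that began 19 bases before its end, the latter on the minus strand. The Tnfrsf1b stretch held a STAT match, and the other two held neither. Promoter windows were found for 31 of the 41 genes, 35 windows in all. The STAT element was in 8 of the 35 windows and in 7.02% of all 32851 windows of the same length. These 8 belonged to Fas, Lta, Ltb, Tnfrsf1a, Tnfrsf1b, Tnfrsf9, Tnfrsf18 and Tnfrsf25, among them genes called higher, called lower, not called and not tested. The NF-kB element was in 3 of the 35 windows (Ltb, Tnfrsf9 and Tnfrsf25) and in 1.41% of all windows. An AHR core element (TNGCGTG, either strand) was in none of the 35 windows and in 4.1% of all windows. The letters describe these windows and say nothing of whether a factor binds there.

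Of the ligands tested, Ltb and Tnfsf14 of the lymphotoxin group changed most. Ltb, at chr17:35194439-35196320 (GRCm38), encodes lymphotoxin beta, which anchors lymphotoxin alpha at the membrane as a ligand of the lymphotoxin beta receptor. Its counts were 44 and 28 in the control group and 733 and 912 in the tumor group. The groups did not overlap, and the mean increased from 2.06 ± 0.405 CPM to 44.3 ± 2.93 CPM (SD, n = 2), a log2 difference of 4.41 (SE 0.136, adjusted p = 7.06e-21). Tnfsf14 (LIGHT), which binds the lymphotoxin beta receptor and the herpesvirus entry mediator, had 26 and 19 counts against 392 and 432. Its mean increased from 1.29 ± 0.129 to 22.3 ± 0.438 CPM (SD, n = 2), a log2 difference of 4.09 (SE 0.174, adjusted p = 1.14e-17). Both rises were 17.0-fold or more and kept their direction and call under every alternative tried. Lta, which encodes lymphotoxin alpha, the partner in that ligand, did not pass the filter, with 12 and 3 counts against 2 and 4. The ratio of its summed scaled counts, tumor over control, was 0.374 with an exact 95% interval of 0.119 to 1.02 that covers counting error only. Beside these rises stand the marker lists of other cells. Of the lymphoid and dendritic lists, all but the plasma cell list summed higher in the tumor libraries. So did the lists of neutrophils (75.4 to 75.7 against 4396 to 4419 CPM) and eosinophils (0.633 to 0.640 against 2625 to 2665 CPM). Those of basophils and mast cells, monocytes, hepatocytes and fibroblasts summed higher as well, and those of lung epithelium and endothelium lower. The 6 B cell markers (4 called higher) summed to 6.61 to 7.03 against 13.0 to 13.6 CPM, the 9 T cell and innate lymphoid markers (3 of 7 tested called higher) to 11.4 to 12.4 against 22.0 to 22.4 CPM, the 5 natural killer cell markers (3 of 3 tested) to 1.49 to 1.77 against 6.11 CPM, and the 8 dendritic cell markers (4 higher, 1 lower) to 14.9 to 15.8 against 48.1 to 51.1 CPM. The 6 plasma cell markers (1 higher, 2 lower) summed to 744 to 760 against 624 to 644 CPM. Most of that sum was Prdm1 (417 and 428 against 262 and 283 CPM) and Xbp1 (322 and 327 against 358 and 359 CPM). Jchain stood at 2.72 and 2.60 against 0.404 and 0.458 CPM. No gene of the lymphoid and dendritic lists was at 0 in all 4 libraries. The gate described above should remove most lymphocytes, and the part of these lists in the rise of Ltb and Tnfsf14 was not tested.

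Of the 3 receptors of this group, 1 was called higher, 1 not called and 1 called lower, beside 53.8% of all genes tested that were called. Tnfrsf14, the herpesvirus entry mediator and the second receptor of LIGHT, had 9 and 5 counts in the control group and 61 and 73 in the tumor group, a log2 fold change of 3.14 (SE 0.364, adjusted p = 2.54e-08). It entered the test through the tumor group alone. Ltbr, the lymphotoxin beta receptor, had 1312 and 1205 against 1217 and 1371 counts. Its libraries overlapped in CPM, and the log2 fold change was -0.06 (SE 0.0554, adjusted p = 0.382), a value that turned to 0.44 and was called (adjusted p = 2.67e-09) when libraries were scaled on AM identity genes. Tnfrsf1b, the second TNF receptor, had 11063 and 9378 counts against 6036 and 6809. It fell from 592 ± 2.83 to 347 ± 1.09 CPM (SD, n = 2), a log2 difference of -0.77 (SE 0.0252, adjusted p = 2.82e-20), and remained lower at -0.27 with AM scaling. Tnfrsf1a, the death-domain receptor of TNF, had 4216 and 3497 against 3864 and 4270 counts. Its log2 fold change of -0.02 did not pass the test (SE 0.0324, adjusted p = 0.645) and turned to 0.48, called at an adjusted p of 1.23e-16, with AM scaling. The difference between both TNF receptors within a library does not depend on scaling: per kilobase of gene, Tnfrsf1b stood at 154.9 and Tnfrsf1a at 86.1 in the control group and at 91.0 and 84.9 in the tumor group. Tnf, the ligand of both, lies between Ltb and Lta in the genome. It had 37825 and 32351 counts against 7485 and 8410, a fall of 2.24 on the log2 scale (SE 0.0205, adjusted p = 2.4e-33).

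**Figure D2:**
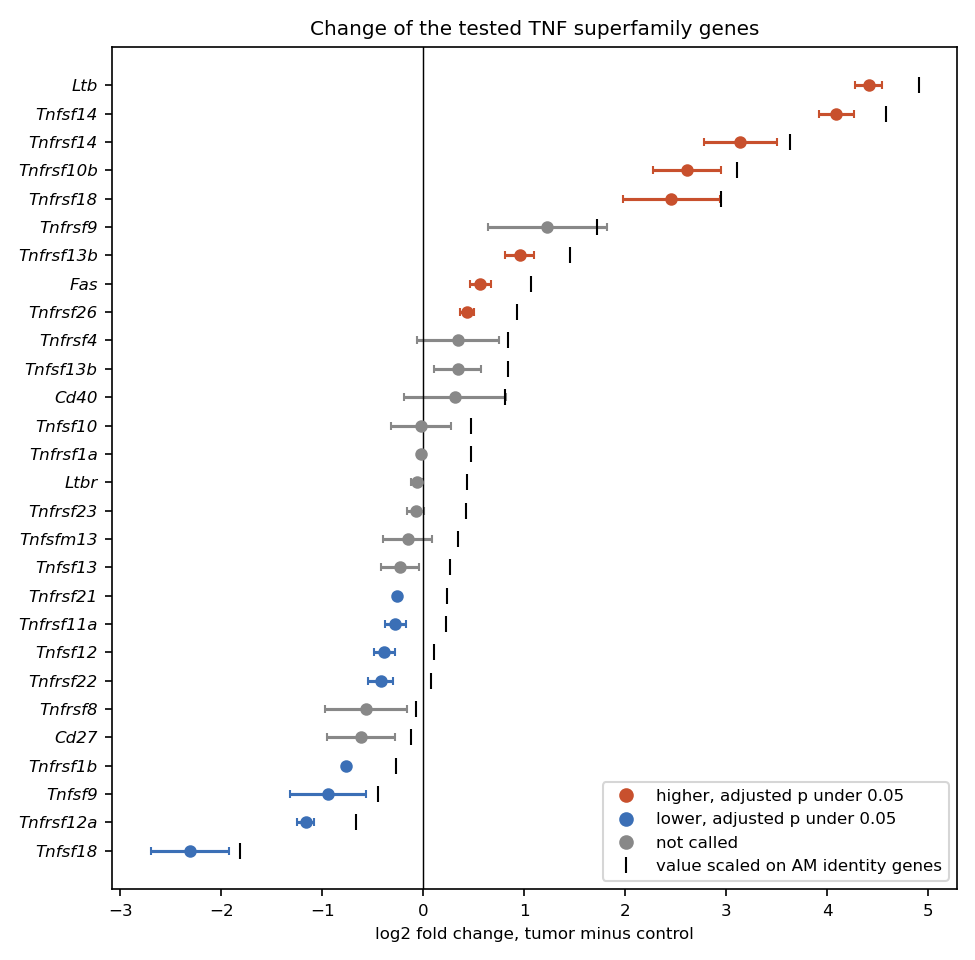
Log2 fold change, tumor minus control, of the 28 tested genes, with bars for the SE and colours for the call. Black ticks give the value after scaling on AM identity genes, which lies to the right for every gene and turns the sign of Tnfrsf21, Tnfrsf11a, Tnfsf12 and Tnfrsf22 among the genes called lower, and of 6 genes that were not called.

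Costimulatory ligands were few in reads, and those that were called were lower. Tnfsf18 (GITR ligand) had 46 and 43 counts in the control group and 10 and 9 in the tumor group, so that the mean fell from 2.59 ± 0.191 to 0.517 ± 0.0839 CPM (SD, n = 2; log2 fold change -2.31, SE 0.387, adjusted p = 1.07e-05). It entered the test through the control group alone. Tnfsf9 (4-1BB ligand) had 31 and 30 counts against 16 and 18, a log2 fold change of -0.94 (SE 0.376, adjusted p = 0.0369). Its call was lost in 8 of 13 alternatives, among them with any of the 4 libraries left out. Where all libraries were kept, the lost calls had adjusted p from 0.0515 (replicate block) to 0.296 (AM scaling). The log2 fold change stayed below 0 in all 13, from -1.05 to -0.44. Cd70 had no counts in any library, and Cd40lg had at most 2. Tnfsf8 (CD30 ligand) and Tnfsf4 (OX40 ligand) were seen mainly in the tumor libraries, below the filter. Tnfsf8 had 1 and 2 counts against 9 and 15, a ratio of 7.47 with an exact 95% counting interval of 2.27 to 38.8. Tnfsf4 had 0 and 1 counts against 3 and 11, a ratio of 13.1 (1.99 to 553).

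All 6 costimulatory receptors passed the filter, and 1 was called (16.7%), beside 53.8% of all genes tested. Tnfrsf18 (GITR), the receptor of the ligand that fell, rose from 4 and 7 counts to 33 and 33 (log2 fold change 2.46, SE 0.481, adjusted p = 8.62e-05). Tnfrsf9 (4-1BB) had 4 and 7 counts against 16 and 12, which did not pass the test (log2 fold change 1.23, SE 0.593, adjusted p = 0.0827). It passed in 1 of 12 alternatives, AM scaling (1.72, adjusted p = 0.0085). Cd27 (42 and 27 against 20 and 28 counts), Tnfrsf8 (CD30), Tnfrsf4 (OX40) and Cd40 (17 and 7 against 10 and 22 counts) did not pass either, with log2 fold changes from -0.61 to 0.35 and adjusted p from 0.129 to 0.626. Each control library held at most 7 counts of Tnfrsf18 and of Tnfrsf9, so that these genes, like Cd40, entered the test through the tumor libraries.

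Of the death receptors, Tnfrsf10b (the TRAIL receptor DR5) and Fas were higher, Tnfrsf21 (DR6) lower, and Tnfrsf1a is given above. Tnfrsf10b had 12 and 8 counts in the control group and 62 and 70 in the tumor group, a log2 fold change of 2.61 (SE 0.336, adjusted p = 1.6e-07), and also entered the test through the tumor group alone. Fas had 296 and 251 counts against 383 and 486, a log2 fold change of 0.57 (SE 0.103, adjusted p = 3.22e-05). The rise of Fas was called in 13 alternatives of scaling, filter, test, model and libraries, and falls short of a log2 fold change of 1. Tnfrsf21 had 3678 and 3164 counts against 2924 and 3207, a log2 fold change of -0.26 (SE 0.0353, adjusted p = 5.49e-07) that turned to 0.24 with AM scaling. Tnfrsf25 (DR3) stayed under the filter, with 3 and 1 counts against 4 and 6.

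The death-inducing ligands were scarce in both groups. Tnfsf10 (TRAIL), the ligand of DR5, had 48 and 27 counts against 31 and 48. The groups overlapped entirely (log2 fold change -0.02, SE 0.299, adjusted p = 0.965), and the sign changed with scaling and with single libraries left out. Fasl had 0 and 1 counts against 8 and 9, a ratio of 15.9 with a counting interval of 2.49 to 664. The decoy receptors of mouse TRAIL, which lack a death domain, were counted more deeply. Tnfrsf22 had 322 and 363 counts against 249 and 303 (log2 fold change -0.42, adjusted p = 0.00484), with the sign turned to 0.08 by AM scaling and the call lost without control replicate 2 (-0.22, adjusted p = 0.215). Tnfrsf23 was not called (log2 fold change -0.07, adjusted p = 0.499). Tnfrsf11b (osteoprotegerin), a soluble decoy, had no counts in the control libraries and 5 in each tumor library, at least 1.34-fold higher when set against the floor of 3 counts per library. Tnfrsf26, an orphan receptor encoded beside the decoys, rose from 810 and 646 to 988 and 1114 counts (log2 fold change 0.43, SE 0.0654, adjusted p = 2.22e-06). Tnfrsf19 (TROY) stayed under the filter, with 0 and 1 counts against 11 and 6, a ratio of 15.9 with a counting interval of 2.49 to 664. Beside the values of Tnfrsf11b and Tnfrsf19, the 5 fibroblast markers (4 called higher, none at 0 in all 4 libraries) summed to 3.54 to 4.05 against 8.13 to 9.67 CPM. Their part in these values was not tested.

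TWEAK and its receptor were both lower. Tnfrsf12a (Fn14), at chr17:23675445-23677468, had 791 and 723 counts in the control group and 334 and 391 in the tumor group. It fell from 44.0 ± 2.55 to 19.6 ± 0.452 CPM (SD, n = 2), a log2 difference of -1.16 (SE 0.0836, adjusted p = 1.64e-12), and was lower under every alternative. Tnfsf12 (TWEAK) had 421 and 358 counts against 274 and 366, a log2 fold change of -0.38 (SE 0.104, adjusted p = 0.00262), which turned to 0.11 with AM scaling. Tnfrsf11a (RANK) had 525 and 350 counts against 368 and 402 (log2 fold change -0.27, adjusted p = 0.0275), a call that was lost in 4 alternatives, among them without control replicate 1 (-0.10, adjusted p = 0.576) and without tumor replicate 2 (-0.25, adjusted p = 0.0515), and reversed in 1. Its ligand Tnfsf11 had at most 2 counts in a library. Tnfsf15 (TL1A), the ligand of DR3, had 10 and 5 counts in the control group and 1 and 0 in the tumor group, a ratio of 0.0623 with a counting interval of 0.00148 to 0.405.

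The B cell survival factors BAFF and APRIL were not called, whereas their shared receptor TACI was higher. Tnfrsf13b (TACI) had 134 and 102 counts in the control group and 230 and 259 in the tumor group, a rise from 6.80 ± 0.484 to 13.2 ± 0.0578 CPM (SD, n = 2; log2 fold change 0.96, SE 0.141, adjusted p = 1.67e-06). Tnfsf13b (BAFF) had 63 and 43 counts against 57 and 87, a log2 fold change of 0.34 (SE 0.234, adjusted p = 0.227), but was called higher with AM scaling (0.84, adjusted p = 0.00145). Tnfsf13 (APRIL) had 109 and 101 against 101 and 90, a log2 fold change of -0.23 (SE 0.187, adjusted p = 0.313). The other receptors of these factors were near the floor, with at most 10 counts of Tnfrsf13c and at most 1 of Tnfrsf17 in a library. Tnfsfm13, a readthrough gene that joins TWEAK and APRIL, had 65 and 48 counts against 44 and 65 (log2 fold change -0.15, adjusted p = 0.63). It covers 48.3% of the exonic bases of Tnfsf12 and 60.0% of those of Tnfsf13 on the same strand, so the counts of these 3 genes are uncertain. Tnfrsf18 shares 27.2% of its exonic bases with the antisense gene Gm16008 and Tnfsf9 14.9% with Gm11110 on the opposite strand. Whether counting used the strand is not given in the sources used here, so reads of these overlaps cannot be assigned.

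Set side by side, the ligands and their receptors moved in the same direction in the LIGHT pair (4.09 for Tnfsf14 and 3.14 for Tnfrsf14) and in the TWEAK pair (-0.38 for Tnfsf12 and -1.16 for Tnfrsf12a, the former with a sign that AM scaling turned). In the GITR pair the values were -2.31 for the ligand and 2.46 for the receptor, but each gene entered the test through the group in which it was higher, as did Tnfrsf14 of the LIGHT pair and Tnfrsf10b (DR5), so their tests do not support these patterns. For lymphotoxin beta the ligand rose and the receptor was not called. For TRAIL and for BAFF and APRIL the ligand was not called, beside 2.61 for DR5 and 0.96 for TACI. The TRAIL decoys Tnfrsf22 and Tnfrsf23 stood at -0.42 (a sign that AM scaling turned) and -0.07 (not called). In the 4-1BB pair Tnfsf9 stood at -0.94, a call lost in several alternatives, and Tnfrsf9 at 1.23 (not called). No test of a difference between ligand and receptor was made.

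**Figure D3:**
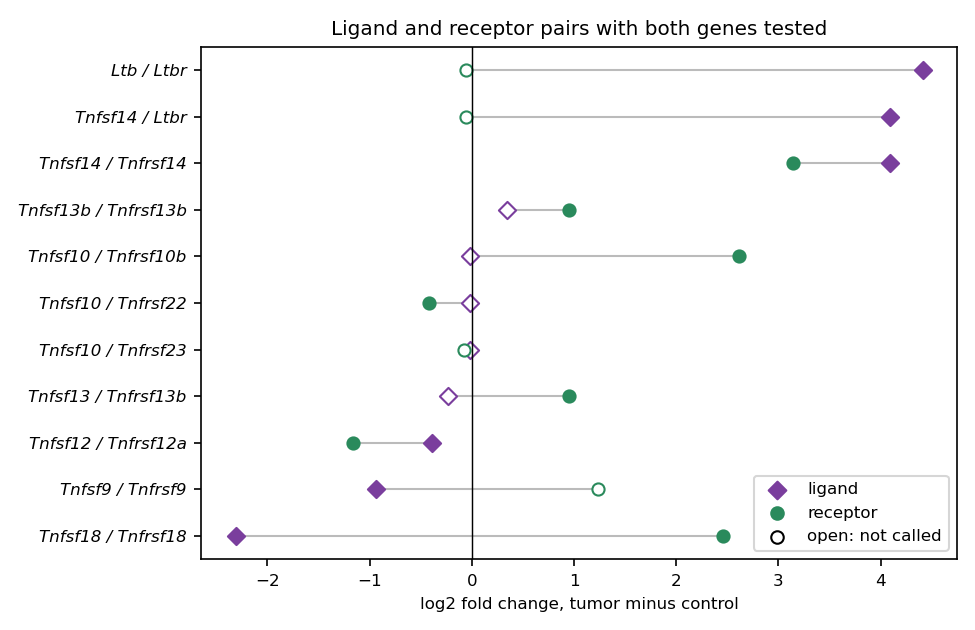
Log2 fold change, tumor minus control, of the ligand (diamond) and the receptor (circle) of each known pair in which both genes were tested, joined by a grey line; open symbols did not pass the test. The ligand and receptor of the LIGHT pair lie together on the right, those of the GITR pair lie on opposite sides of 0 (each entered the test through its higher group), and Ltbr lies near 0 (0.44 with AM scaling) while both of its ligands lie at or above 4.09.

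Levels of different genes were compared as CPM per kilobase of the deposited gene length. In the control group the order was led by Tnfrsf1b (154.9), Tnfrsf1a (86.1), Tnfrsf21 (48.2), Ltbr (31.1) and Tnfrsf12a (22.8), and no neighbours among these overlapped. The highest ligand was Tnfsf12 at 14.9, in position 6, and Ltb (1.36) and Tnfsf14 (0.701) came in positions 16 and 20. In the tumor group Ltb (29.2) stood in position 5, where its libraries overlapped those of Ltbr (29.7), and Tnfsf14 (12.1) stood in position 8, where it overlapped Tnfsf12 (11.4). Tnfrsf12a had moved to position 10. Ltb and Tnfsf14 together made up 8.74% and 7.0% of the summed ligand level in the control group and 69.5% and 68.5% in the tumor group. Tnfsf12 made up 56.3% and 57.6% against 18.1% and 19.8%. The summed receptor level was 14.6 and 15.0 times the summed ligand level in the control libraries and 5.43 and 5.01 times in the tumor libraries, ratios that no scaling of libraries changes. Tnf, outside these sums, stood at 46.8 and 48.1 times the summed level of the 17 ligands in the control libraries and at 4.56 and 4.2 times in the tumor libraries. With 2 libraries a group these ratios were not tested.

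**Figure D4:**
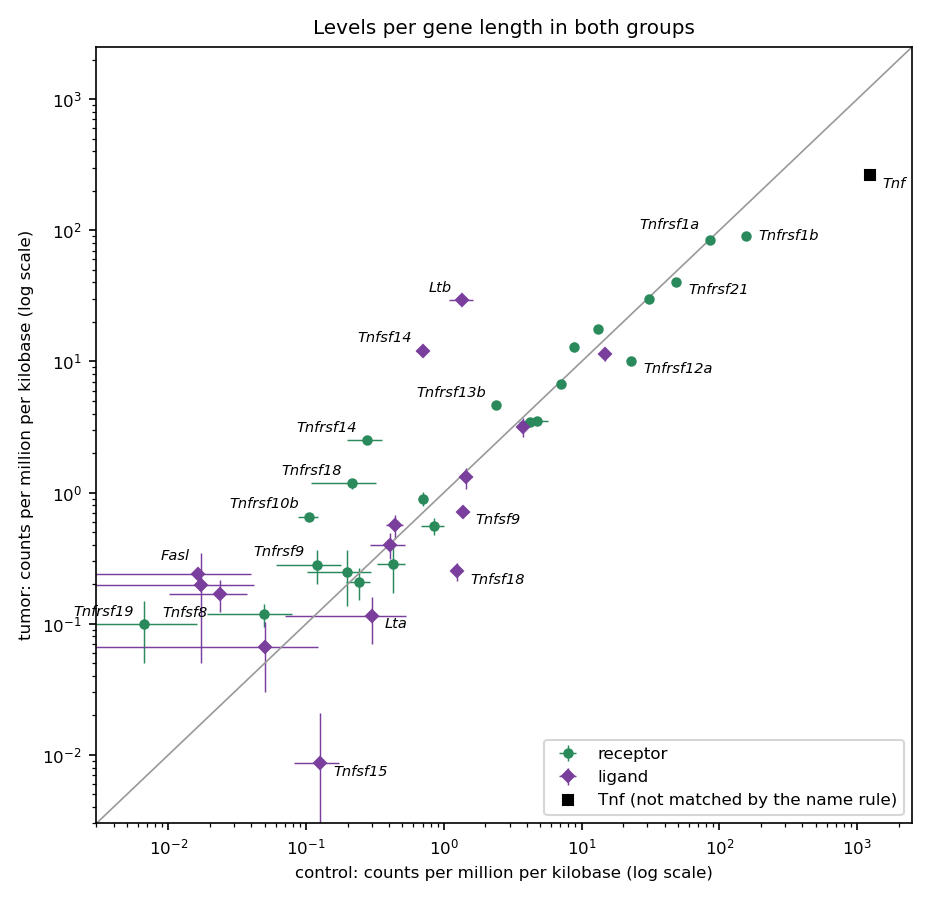
Mean level per gene length (CPM per kilobase, log axes) in the control group (horizontal) and the tumor group (vertical), with bars for the SD over 2 libraries, for superfamily genes with counts in both groups and for Tnf; bars that reach 0 run off the axes. Ltb and Tnfsf14 lie far above the grey line of equal level, and Tnf (black) lies below it at the upper right.

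Several of these genes lie side by side in the genome. Within 100 kb of one another lay 22 superfamily genes and Tnf, in 9 clusters. On chromosome 17, Ltb (higher), Tnf (lower) and Lta (under the filter) follow each other with gaps of 3.1 kb and 1.2 kb. On the same chromosome, Tnfsf9 (lower, a call lost in several alternatives) and Tnfsf14 (higher) flank Cd70, which had no counts, with gaps of 38.2 and 39.7 kb. On chromosome 4, Tnfrsf18 (higher) starts 9.6 kb from Tnfrsf4 (not called). On chromosome 7, Tnfrsf26 (higher), Tnfrsf22 (lower, a sign that AM scaling turned) and Tnfrsf23 (not called) adjoin with gaps of 6.1 and 16.1 kb. Tnfsf18 (lower) lies 76.2 kb from Tnfsf4 (under the filter), Tnfrsf1b (lower) 20.3 kb from Tnfrsf8 (not called), and Tnfsf12 (lower, a sign that AM scaling turned) beside Tnfsf13 and Tnfsfm13 (not called). In the other clusters, Cd27, Ltbr and Tnfrsf1a were not called, and Tnfsf15 and Tnfsf8 were under the filter. With AM scaling, Ltbr (0.44, adjusted p = 2.67e-09) and Tnfrsf1a (0.48, adjusted p = 1.23e-16) were called higher by edgeR and Cd27 was not called (-0.12, adjusted p = 0.761).

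The proteins that act with the superfamily were read from lists. Of 24 receptor adaptors and genes of the NF-kB branch, all tested, 20 were called, 12 higher and 8 lower, with a median log2 fold change of 0.08. Over all genes tested, 53.8% were called, 29.0% higher and 24.8% lower. With AM scaling, under which 93.3% of the calls over all genes were higher, the list split into 20 higher and 3 lower. The largest changes were those of Traf1, an adaptor of the TRAF family (70 and 45 against 164 and 220 counts, log2 fold change 1.64, SE 0.183, adjusted p = 1.23e-08), of Traf4 (1.30), of Tnip1, a partner of the NF-kB inhibitor A20 (-1.27), and of Birc3, a ubiquitin ligase of the TNF receptor complex (1.09). Of 8 death-receptor signalling genes, 7 were called, 3 higher and 4 lower, beside the same 53.8% of all genes, and AM scaling gave 6 higher and 1 lower. Bid, which links death receptors to mitochondria, had 48 and 21 counts against 139 and 147 (log2 fold change 1.96, SE 0.232, adjusted p = 3.68e-08). Cflar (c-FLIP), which holds back caspase activation at death receptors, had 11606 and 9691 counts against 3716 and 4324, a log2 fold change of -1.50 (SE 0.0273, adjusted p = 2.45e-26). Of 5 processing enzymes, 4 were lower and none higher, at a median log2 fold change of -0.67 over the list, beside 24.8% of all genes tested that were lower. With AM scaling 3 were lower and 2 higher, and with total counts 4 were lower and 1 higher. Adam17, the protease that sheds TNF and its receptors, had 8625 and 7043 counts against 4880 and 5650 (log2 fold change -0.67, SE 0.028, adjusted p = 8.04e-18). The iRhoms that guide it, Rhbdf1 (-0.80) and Rhbdf2 (-0.68), were lower as well, Adam10 was at -0.19 and turned to 0.31 with AM scaling, and Furin was not called (0.01, adjusted p = 0.816; 0.51 with AM scaling). Of the superfamily genes outside the name rule, Relt was higher (log2 fold change 0.25, adjusted p = 0.00458), Ngfr had no counts in the control group and 12 and 21 in the tumor group, and Eda, Eda2r and Edar had at most 4 counts.

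**Figure D5:**
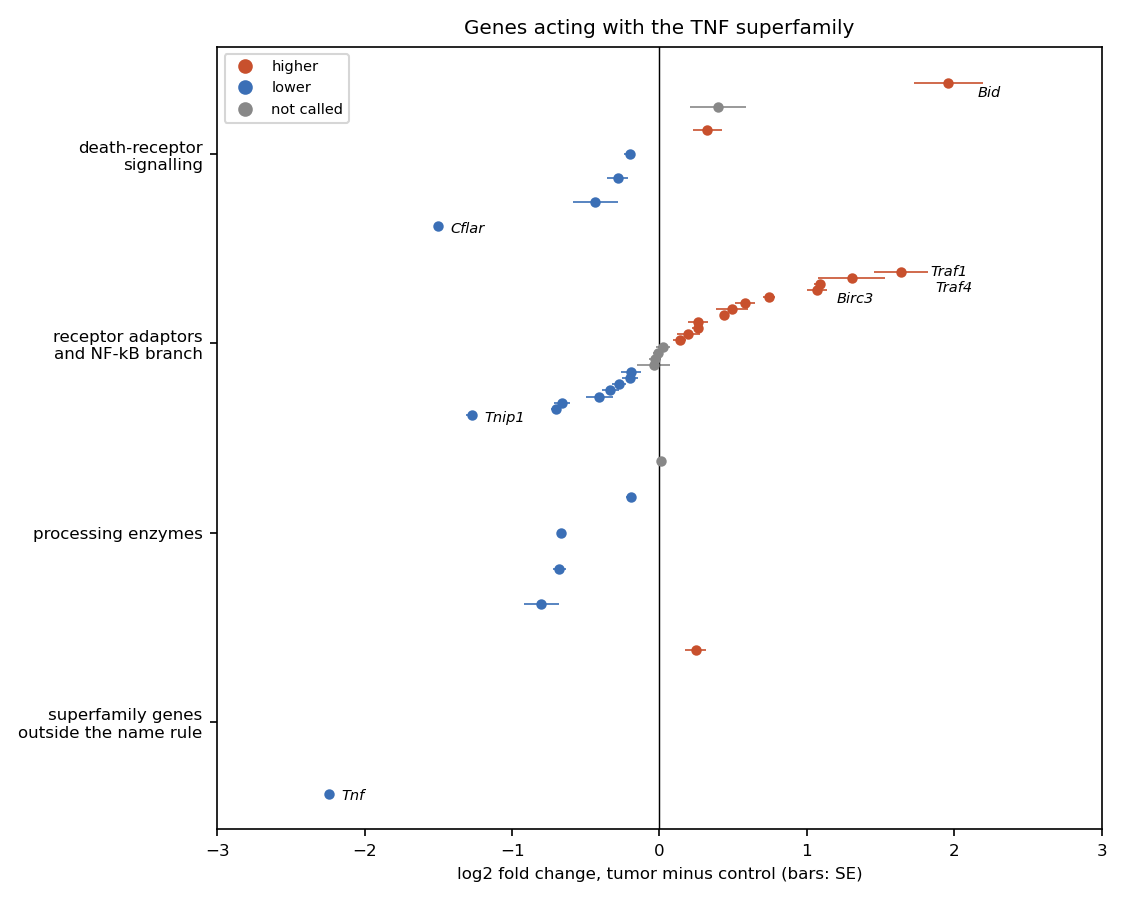
Log2 fold change, tumor minus control, with SE bars, of tested genes in 4 lists that act with the superfamily; genes with no counts in 1 group and 1 gene of the death-receptor list are left out. The processing enzymes lie at or below 0 apart from Furin at 0.01 (AM scaling moves Furin to 0.51 and Adam10 to 0.31), the adaptors lie on both sides, and Bid and Cflar lie on opposite sides of 0 in the death-receptor list.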

How the data were processed

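Per the labels and the study's methods, AM RNA was extracted with TRIzol, made into NEBNext Ultra libraries, sequenced in pairs on an Illumina HiSeq, aligned with HISAT2 2.0.5 and counted with featureCounts. The submitters' processing notes also name DESeq2. The deposited values are raw counts per gene, not normalized by the authors, beside a gene length used here for levels per kilobase. The build, annotation, strand setting and treatment of multiply mapped reads are not given in the sources used here. Of 42 genes (the superfamily genes and Tnf), 41 had coordinates identical to GENCODE M21 on GRCm38 and Fas differed by at most 7 bases.

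The main fit used edgeR 4.0.16 under R 4.3.3: filterByExpr (minimum count 10), TMM factors (0.977 to 1.02), the quasi-likelihood test with group alone (2 residual degrees of freedom) and Benjamini-Hochberg adjustment over all 14256 genes tested. SE is the absolute log2 fold change over the root of F. CPM uses TMM-scaled library sizes. A group with 1 to 3 counts in all is given as a ratio with an exact 95% binomial interval, and a group at 0 was set at 3 counts per library; both cover counting error only. On simulated counts, 92% of 200 changed genes were recovered among 14083 tested and 2.65% of calls were false. The changed genes there were few, none was at the lowest counts, and all genes shared 1 common spread. In the data 53.8% of genes were called, so these rates describe the simulation and do not carry over to the calls above. Replicates correlated at 0.994 and 0.992 (log CPM) and differed by more than sampling noise.

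Genes, lists and tests were chosen with earlier results of these data known. Described in full were genes called at 1.5-fold or more and the only partner of such a gene; other superfamily genes are named to account for each. Other lists give at most 4 called genes of largest change, and promoters are those of the 2 largest rises and falls with a mean of at least 100 counts. Alternatives were DESeq2 1.42.0 size factors, total counts or AM identity genes for scaling, other count filters, the DESeq2 Wald test, limma-voom (limma 3.58.1), a replicate block, a log2 fold change of at least 1, protein-coding genes alone and each library left out (1 residual degree of freedom, the lone library assumed to vary like the other group). 1 gene of the death-receptor list is counted but not reported here.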

Additional observations from a re-analysis of the deposited data

How the results depend on the processing

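Of the 28 tested superfamily genes, 14 kept their direction and their side of the threshold under every alternative run for them (the minimum fold apart), and 11 of the 16 called genes did, the exceptions being Tnfsf9, Tnfrsf11a, Tnfrsf21, Tnfrsf22 and Tnfsf12. The 16 calls became 7 with a log2 fold change of at least 1 (5 higher, 2 lower; 25.0% of the 28, beside 15.9% of all genes tested, with 81.1% of all calls higher). Scaling on AM identity genes moved the 8 higher calls to 15, the 8 lower calls to 3 and the 12 lower AM identity genes to 4. It also turned the log2 fold changes of Ltbr (0.44), Tnfrsf11a (0.22), Tnfrsf1a (0.48), Tnfrsf21 (0.24), Tnfrsf22 (0.078), Tnfrsf23 (0.42), Tnfsf10 (0.48), Tnfsf12 (0.11), Tnfsf13 (0.26) and Tnfsfm13 (0.35). Total counts as library sizes turned Ltbr (0.0068), Tnfrsf1a (0.047) and Tnfsf10 (0.048). At least 10 counts in every library removes genes near 0 in 1 group by construction, which left 5 higher calls and 20 of the 55 higher markers of other cells, and it turned Tnfrsf1a (0.0057) and Tnfsf10 (0.0057). With a log2 fold change of at least 1, 5 of the 20 adaptor genes, 3 of the 7 death-receptor signalling genes, 0 of the 4 processing enzymes and 1 of the 12 lower AM identity genes were called. Leaving out 1 library left 1 library in a group, so no count of calls is given for it. It turned Cd40 (range -0.26 to 0.93, below 0 at -0.10 without control replicate 2 and at -0.26 without tumor replicate 2), Tnfsf10 (range -0.29 to 0.30, above 0 at 0.30 without control replicate 1 and at 0.17 without tumor replicate 1) and Tnfsfm13 (range -0.37 to 0.013, above 0 without tumor replicate 1). Without a filter 20 of 40 superfamily genes were called (50.0%), 11 higher and 9 lower, beside 31.3% of all 25322 genes tested. The replicate numbers do not pair the libraries (correlation of deviations -0.00278). With a replicate block 15 of the 28 genes were called (53.6%), beside 52.2% of all genes tested, Tnfsf9 being lost (-0.94, adjusted p = 0.0515). The cause of the changes other than by construction was not tested. Genes with fewer than about 10 counts in a library are limited by depth, and their ratios cover counting error only.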
